A study of Mus musculus with 2 samples.

Results

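The strongest regions of an SF1 ChIP-seq experiment in mouse uterus were taken as those on chromosomes 1 to 19 to which the authors gave a score of 50 or more. There were 315 of them among 16041 autosomal regions, which is 1.96%, and among 16249 regions in the whole list. The remaining 15726 autosomal regions scored under 50 and serve as the comparison. These regions were chosen by their score, so their scores are given as a description and are not tested. ChIP-seq sequences the DNA that comes down with an antibody, here one against SF1, and a region is a stretch where the authors' caller found an excess of reads.

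The tissue was whole uterus of C57BL6/6J mice aged 8 weeks. Their ovaries had been removed at 6 weeks of age, and a rest of 2 weeks followed, so both libraries share the loss of ovarian hormones. There was 1 ChIP library and 1 input library, with no replicate of either, and the region list belongs to the ChIP. The labels name no transgene and do not say whether tissue was pooled. The study asked about SF1 in the endometrium and glands that become cystic. Whole uterus also holds stroma and smooth muscle, and the list does not show which cells a region comes from.

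SF1, the product of Nr5a1, is a nuclear receptor that binds DNA as a monomer at an extended half-site. It activates the genes of steroid synthesis, such as Star and Cyp11a1, in the adrenal cortex and the gonads. A high score in a ChIP list can also come from repeated sequence. The genome carries many copies of such a sequence and the assembly only a few, so reads from all copies can collect at 1 place. The ribosomal DNA repeat and the major satellite of the centromeres are known examples in the mouse. No mm9 gene annotation or sequence was used here, so regions are given by position and no gene is assigned to any of them.

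Most of the 315 regions lay only a little above the limit. Scores of 50 to 59 were given to 175 of them, 60 to 69 to 72, 70 to 79 to 41, 80 to 99 to 17, and 100 to 156 to 10. Their median score was 58, against 17 among the regions under 50. The unit of the score is not stated, so scores are compared only within this list. The limit fell on a smooth slope, with 26 regions at a score of 48, 33 at 49, 28 at 50 and 26 at 51. Regions just inside it resembled those just outside it. The 164 regions scoring 45 to 49 had a median width of 3728.5 bp and 53.7% had another region within 10 kb, while the 110 regions scoring 50 to 54 had a median width of 3372.5 bp and 50.9% had such a neighbour.

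The high-scoring regions were wider than the rest. Their median width was 3946 bp, with quartiles of 2651 and 5811.5 bp and a range from 1604 to 31333 bp. Regions under 50 had a median width of 2078 bp, with quartiles of 1631 and 2931 bp. The ratio of the medians was 1.90, and the interval from order statistics of the 315 widths ran from 1.74 to 2.07. Of the 315, 294 (93.3%) were wider than the median of the others, 220 were wider than their upper quartile and 1 was narrower than their lower quartile. Width and score come from the same reads and the same caller, so this is a description of the list and not a test. Set against regions scoring 20 to 49 alone, whose median was 2645.5 bp, the ratio was 1.49. With the minimum score raised to 60 it was 2.22.

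**Figure D1:**
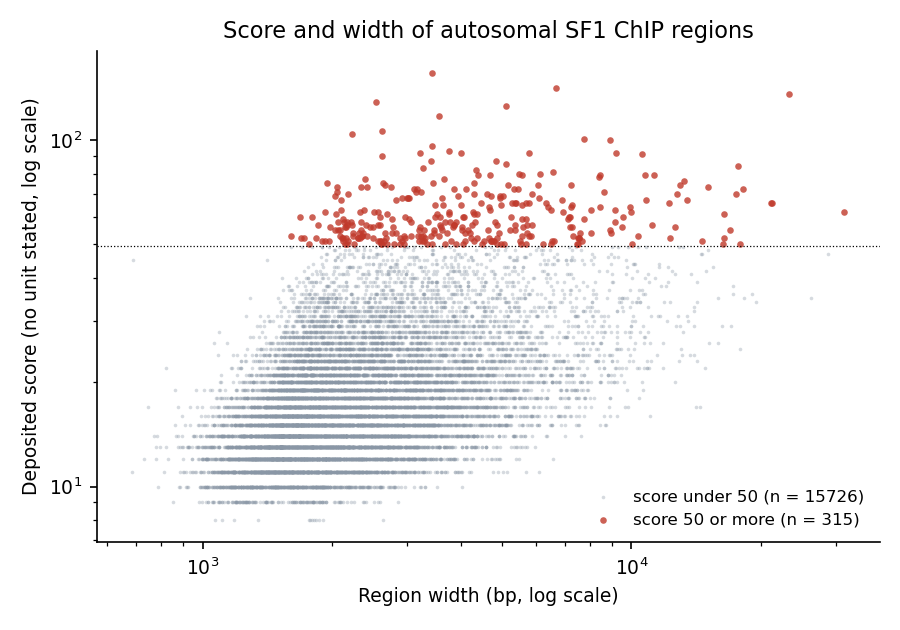
Deposited score against region width for 16041 autosomal regions, both axes on a log scale, with 1 point per region. Regions scoring 50 or more (red) start at 1604 bp and reach 31333 bp, while narrower regions occur only below the dotted line at the limit.

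Median width was larger at higher scores over most of the list and then levelled. The median width was 1662 bp at scores of 8 to 12, 1898.5 bp at 13 to 16, 2138.5 bp at 17 to 19, 2510.5 bp at 20 to 29, 2909 bp at 30 to 39 and 3442 bp at 40 to 49. It was 3463 bp at 50 to 59, 4665 bp at 60 to 69, 4398 bp at 70 to 79, 4836 bp at 80 to 99 and 4328.5 bp at 100 to 156. From 60 up the medians had no further order, although the last bins hold only 17 and 10 regions. Across regions, which are not independent, Spearman's rho of score and width was 0.185 within the 315 and 0.445 within the others.

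Broad regions made up 28 of the 315, where broad means wider than 10 kb. That is 8.89% (exact 95% interval 5.99 to 12.6%, counting error only), against 106 of 15726 others (0.674%) and 0.835% of all autosomal regions. Below the limit the share was already 6.15% at scores of 40 to 49 and 3.47% at 30 to 39, so breadth was not particular to the 315. The 28 broad regions lay on 14 chromosomes and scored between 50 and 136, with a median of 66. The widest was on chromosome 10 (79600977 to 79632310), spanned 31333 bp and scored 62, so its score divided by width was the lowest of the 315 at 1.98 per kb. A second broad region on chromosome 10 (81018515 to 81039639, 21124 bp) scored 66. A pair on chromosome 2, at 30501789 to 30520016 (18227 bp, score 72) and 30560479 to 30581744 (21265 bp, score 66), lay 40463 bp apart. Only the region on chromosome 8 at 73205360 to 73228615 was among both the 5 widest and the 5 highest, with 23255 bp and a score of 136. The lowest scores per kb also included chromosome 16 at 30079640 to 30097562 (17922 bp, score 50) and chromosome 2 at 74516993 to 74533371 (16378 bp, score 50). These 2 had the lowest score in the set and widths far above its upper quartile of 5811.5 bp.

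Narrow regions were scarce at this level. Only 14 of the 315 (4.44%) were under 2 kb wide, against 46.5% of the others. Just below the limit they were scarce too, with 8.21% at scores of 40 to 49 and 18.7% at 30 to 39. The 14 lay on 11 chromosomes and scored 50 to 75. The narrowest, at 1604 bp, was on chromosome 2 (98506125 to 98507729, score 53). The next were on chromosome 11 (100956130 to 100957816, 1686 bp, score 60), chromosome 15 (73476047 to 73477740, 1693 bp, score 52), chromosome 5 (34711073 to 34712798, 1725 bp, score 52) and, at 1768 bp, chromosome 19 (5023441 to 5025209, score 50). Apart from the one on chromosome 11, these narrowest regions lay within 3 points of the limit.

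The tallest regions for their width were not the narrowest ones. The highest score per kb was 50.8, on chromosome 15 (81701470 to 81704010, 2540 bp, score 129). It was followed by chromosome 12 at 10396801 to 10399037 (2236 bp wide with a score of 104, 46.5 per kb) and by the top of the list, chromosome 10 at 127518959 to 127522389 (3430 bp, score 156, 45.5 per kb). Chromosome 2 at 73747929 to 73750550 (2621 bp, score 106) had 40.4 per kb and chromosome 17 at 26004375 to 26006322 (1947 bp, score 75) had 38.5 per kb. The median was 15.5 per kb among the 315 and 7.95 among the others. This measure contains the score that chose the 315, so the contrast is a description only. Below the limit the median was 12.6 per kb at scores of 40 to 49 and 11.4 at 30 to 39. Of these 5 sharp regions, 4 scored above 100, so the top of the list held sharp and broad shapes side by side.

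High-scoring regions occurred on all 19 autosomes. Chromosomes 2 and 11 held most, with 29 each, and chromosomes 8 and 9 followed with 27 each. Chromosome 12 held fewest, with 6. As a share of a chromosome's own regions, chromosome 8 stood highest with 27 of 905 (2.98%, exact 95% interval 1.98 to 4.31%), followed by chromosome 9 with 27 of 950 (2.84%, 1.88 to 4.11%) and chromosome 19 with 14 of 500 (2.80%, 1.54 to 4.65%). Chromosome 12 was lowest with 6 of 652 (0.920%, 0.338 to 1.99%). The intervals of 18 of the 19 autosomes held the share of all autosomes, 1.96%, and chromosome 8 alone missed it. These intervals treat regions as independent, which regions that lie in groups are not, so they are too narrow. The intervals of chromosomes 8 and 12 themselves overlapped.

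**Figure D2:**
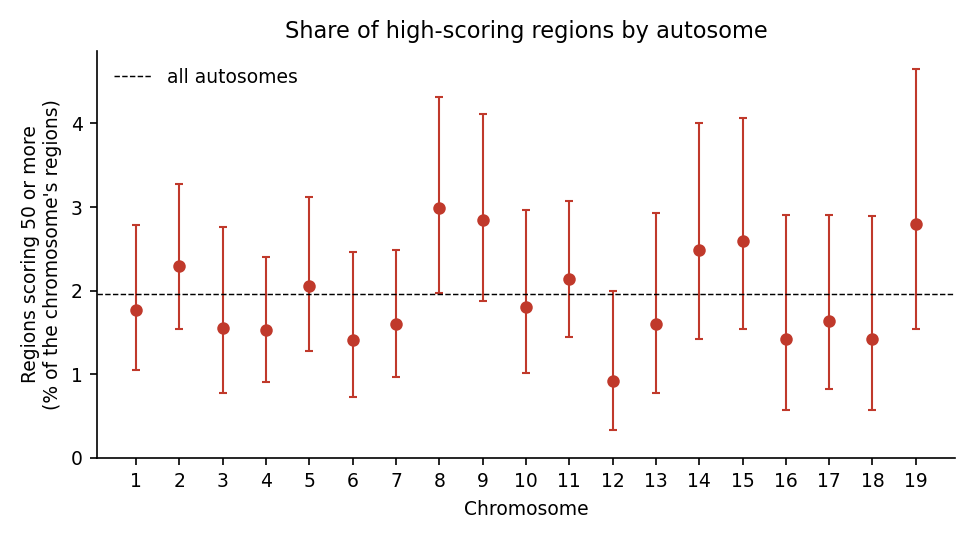
Share of each autosome's regions that scored 50 or more, in percent, with exact 95% binomial intervals that cover counting error only; the dashed line is the share over all autosomes, 1.96%. Chromosome 8 (2.98%) is highest and chromosome 12 (0.920%) lowest, and most intervals cross the line.

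Chromosome 11, known as gene-rich, had the densest list of all, 11.4 regions per Mb of the span from its first to its last region. It also had the most high-scoring regions per span, 24.4 per 100 Mb, close to chromosome 19 at 24.1 and chromosome 9 at 22.6, and against 13.2 over the autosomes. Relative to its own regions, though, chromosome 11 was ordinary, with 2.14% (1.44 to 3.07%) scoring 50 or more. It held 9.21% of the high-scoring regions and 8.41% of the others. The sparsest list, that of chromosome 3 with 4.67 regions per Mb, had 7.23 high-scoring regions per 100 Mb and a share of 1.55%. Chromosome 12 was lowest per span too, at 5.11 per 100 Mb.

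The high-scoring regions of chromosome 8 were unevenly spread along it. The stretch from 120 to 130 Mb held 11 of its 27 high-scoring regions among 193 regions (5.70%), the most of any 10 Mb block. Outside that block chromosome 8 had 16 of 712 (2.25%, 1.29 to 3.62%). The block was picked for its count, so leaving it out had to lower the share. The 11 regions ran from 121944319 to 129412374. They were moderate in score, 50 to 74, and wide, with a median of 7524 bp and a range from 2065 to 12972 bp. Of these 11, 5 were wider than 10 kb, and they make up most of the 6 broad high-scoring regions of chromosome 8. The highest was 129042464 to 129055436 (12972 bp, score 74), with another at 129182639 to 129194944 (12305 bp, score 52) 127203 bp further on.

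Across the autosomes, 137 of the 258 blocks of 10 Mb that held any region held at least 1 high-scoring one, and 15 blocks held 5 or more, 94 regions together. Those 15 blocks were picked by their count, so their total is only a description. After chromosome 8, the fullest were chromosome 4 from 130 to 140 Mb with 8 of 225 regions, and chromosome 19 from 0 to 10 Mb, chromosome 2 from 160 to 170 Mb and chromosome 9 from 60 to 70 Mb with 7 each. Chromosome 9 at 20 to 30 Mb had a higher share still, 4 of 58 (6.90%), from a small number. Stretches without a high-scoring region were measured only between neighbouring high-scoring regions of a chromosome. Those before the first or after the last one were not counted and can be longer. The longest measured was 48.9 Mb on chromosome 12 (31840655 to 80760886), in which 202 regions of lower score lay. The next was 43.6 Mb on chromosome 10 (83945084 to 127518959) with 247 such regions, and it ended at the region with the highest score of the list. These stretches were not empty of SF1 ChIP regions and lacked only high scores.

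The highest-scoring region of each chromosome ranged from a score of 65 to a score of 156, and reached 100 on 9 of the 19 autosomes. Chromosome 10 (score 156), chromosome 17 at 39979688 to 39986368 (score 141), chromosome 8 (score 136), chromosome 15 (score 129) and chromosome 7 at 134486032 to 134491135 (score 125) had the 5 highest values overall. Chromosome 18 at 35112770 to 35116324 followed with 117, then chromosome 2 with 106, chromosome 12 with 104 and chromosome 1 at 65084442 to 65093347 with 100. Next came chromosome 14 at 26403247 to 26412471 (score 92), chromosome 9 at 86609184 to 86613189 (score 92), chromosome 11 at 4110182 to 4120789 (score 91) and chromosome 19 at 47992744 to 47995368 (score 90). Chromosome 6 at 86158058 to 86164621 reached 81, chromosome 5 at 23948785 to 23954261 reached 80 and chromosome 3 at 101316911 to 101325330 reached 78. The lowest maxima were on chromosome 4 at 119621065 to 119623460 (score 77), chromosome 13 at 56236114 to 56238214 (score 67) and chromosome 16 at 33889859 to 33897114 (score 65). Chromosome 12, poorest in high-scoring regions, thus still held the eighth-ranked score, while chromosome 4 had 18 high-scoring regions and none above 77.

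Near neighbours were somewhat more frequent around the high-scoring regions. Another region lay within 10 kb, edge to edge, of 169 of the 315 (53.7%, exact 95% interval 47.97 to 59.3%), against 6769 of 15726 others (43.0%, 42.3 to 43.8%) and 43.3% of all autosomal regions. The difference was 10.6 percentage points. The median distance to the nearest region was 8666 bp against 13796.5 bp. Both sides had a neighbour within 10 kb for 45 of the 315 (14.3%) and for 9.74% of the others. Measured between midpoints in place of edges, the shares were 35.9% and 35.6%, a difference of 0.308 points. The excess thus depended on how distance was measured. A distance between midpoints includes part of each region's own width, so at a fixed 10 kb it is the stricter limit for wide regions. Whether this accounts for the smaller difference was not tested.

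**Figure D3:**
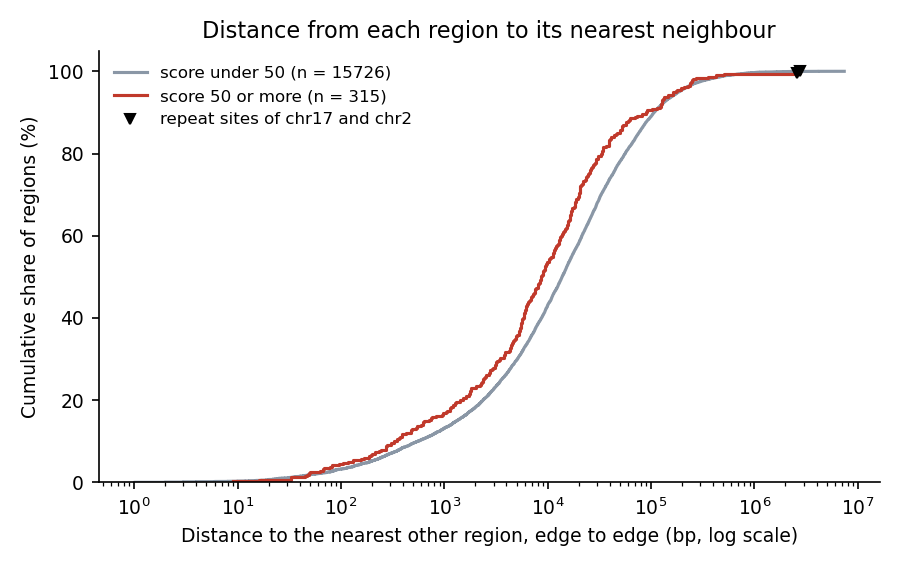
Cumulative share of regions, in percent, against the edge-to-edge distance to the nearest other region in bp on a log scale, for regions scoring 50 or more (red) and under 50 (grey). The red curve runs above the grey one at middle distances, with medians of 8666 and 13796.5 bp, and the black triangles mark the 2 high-scoring regions farthest from any other, at 2571359 and 2748958 bp.

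Within the 3 narrower classes of width the difference turned round, and in the widest it remained. Under 2 kb, 2 of 14 high-scoring regions (14.3%, exact 95% interval 1.78 to 42.8%) had a neighbour within 10 kb, against 33.3% of 7316 others, a difference of -19.0 points. From 2 to 4 kb the shares were 41.4% of 145 (33.3 to 49.8%) and 47.0% of 6561, a difference of -5.60 points. From 4 to 10 kb they were 64.1% of 128 (55.1 to 72.3%) and 67.0% of 1743, a difference of -2.89 points. Over 10 kb they were 89.3% of 28 (71.8 to 97.7%) and 80.2% of 106, a difference of 9.10 points. The interval of the high-scoring share held the share of the others in each of the 4 classes. In both sets the share rose with width, far more than it differed between them. With the others weighted to the 4 width classes of the high-scoring regions, their share was 57.4%, which is above the 53.7% seen at high scores.

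**Figure D4:**
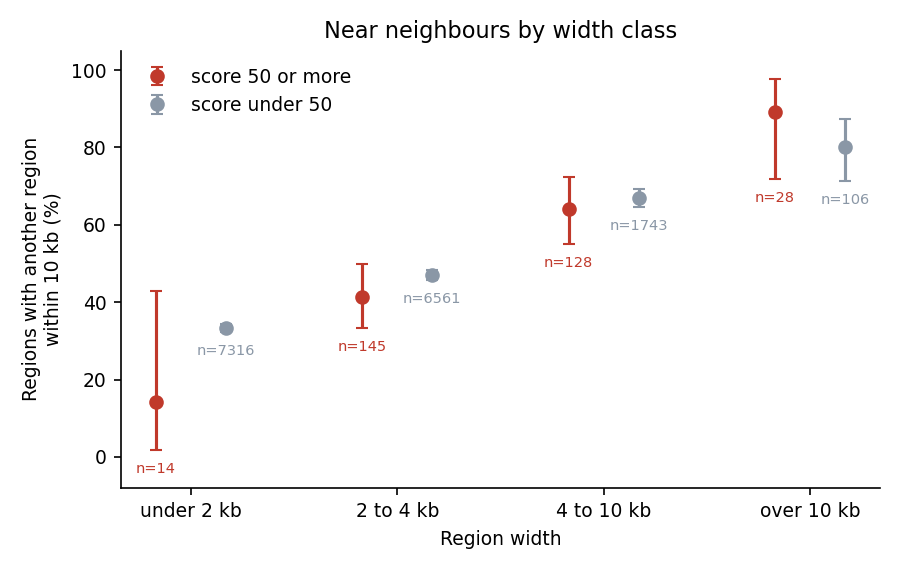
Share of regions with another region within 10 kb, in percent, by class of region width, for scores of 50 or more (red) and under 50 (grey), with exact 95% binomial intervals for counting error and the number of regions beside each point. Both series climb with width, from 14.3% to 89.3% and from 33.3% to 80.2%, and the red intervals hold the grey points in all 4 classes.

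The wider surroundings behaved alike. Within 1 Mb of their midpoint, the high-scoring regions had a median of 30 other regions (quartiles 18 and 43) and the others 25 (15 and 37). Within width classes the medians were 20.5 and 20 under 2 kb, 26 and 27 from 2 to 4 kb, 31 and 34 from 4 to 10 kb, and 39 and 41.5 over 10 kb. Within 100 kb the medians were 5 and 3. In the same order of width classes they were 1.5 and 2, 4 and 4, 5.5 and 6, and 7 and 7, so no class showed that excess. Among the 315, score and distance to the nearest region had a Spearman's rho of -0.00236, and width and that distance one of -0.400. Among the others these values were -0.0331 and -0.273. The 315 were chosen by score, which narrows its range, so its value cannot be weighed against that of width.

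What lay next to a high-scoring region was ordinary. The nearest region had a median score of 17 (quartiles 13 and 21.5) in the case of the 315 and of 17 (13 and 22) in the case of the others. It was itself a high-scoring region for 4 of the 315 (1.27%), against 2.07% of the others and 2.06% of all autosomal regions. Of the 315, 53 (16.8%) had a region less than 1 kb away, against 13.1% of the others. Those 53 neighbours scored between 8 and 38, with a median of 16, and 0 of them reached 50. The 53 regions themselves had a median width of 4860 bp, against 3728 bp for the remaining ones, and the median score was 58 in both. Joining regions less than 1 kb apart left 315 high-scoring regions, since no 2 of them were that close.

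Groups were formed from regions less than 10 kb apart. Of the 315, 27 (8.57%) lay in a group of 5 or more, against 6.01% of the others and 6.06% of all autosomal regions. The share was 8.97% at scores of 40 to 49 and 7.86% at 30 to 39, so it was not particular to the 315. It was not split by width. The list held 164 groups of 5 or more, and 25 of them contained a high-scoring region, a count for which no expected number was computed. The largest with one was a group of 11 on chromosome 1, where 74050545 to 74058035 (7490 bp, score 52) had regions at 246 and 49 bp on its sides and 15 others within 100 kb. Surroundings as crowded as this were also seen on chromosome 14 at 77019748 to 77028886 (9138 bp, score 58), with 16 others within 100 kb. The other regions with the most neighbours belonged to 1 cluster on chromosome 4.

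Distances among the high-scoring regions were also counted. Another high-scoring region was within 10 kb for 4, within 100 kb for 26 (8.25%) and within 1 Mb for 170 (53.97%). The share of the others with a high-scoring region at these distances was not computed. The counts therefore do not show whether high-scoring regions lay closer together or farther apart than other regions do. The median distance between nearest high-scoring regions was 831 kb, with quartiles of 305 and 3373 kb. The 26 formed 11 pairs and 1 group of 4, on 10 chromosomes. The group of 4 lay on chromosome 4 and spanned 81167 bp. It consisted of 132597753 to 132602914 (5161 bp, score 74), 132610751 to 132613359 (2608 bp, score 51), 132635693 to 132652164 (16471 bp, score 52) and 132672694 to 132678920 (6226 bp, score 50). The gaps between them were 7837, 22334 and 20530 bp, and each had 15 or 16 other regions within 100 kb. The closest pair of all lay on chromosome 8, at 113173591 to 113177455 (3864 bp, score 57) and 113181098 to 113189132 (8034 bp, score 63), 3643 bp apart. On chromosome 2, the regions at 166990508 to 166996174 (5666 bp, score 59) and 167012733 to 167015377 (2644 bp, score 51) were 16559 bp apart. Of the 4 regions in the group, 3 scored 50 to 52, as did the lower of the last pair, so both rest on regions close to the limit.

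**Figure D5:**
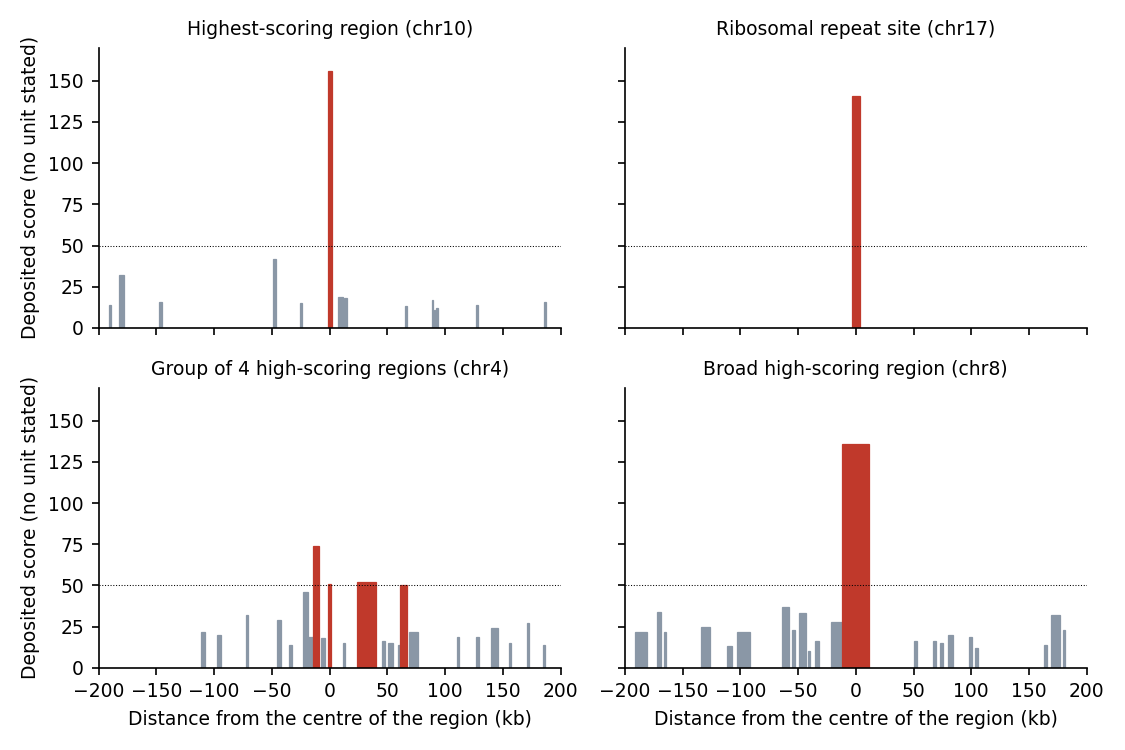
Regions within 200 kb of the centre of 4 high-scoring regions, drawn to scale in kb from that centre, with height as the deposited score; red marks scores of 50 or more and the dotted line is at 50. The chromosome 17 site stands alone (1 region in the window), while the windows on chromosomes 10, 4 and 8 hold 14, 23 and 22 regions, of which 1, 4 and 1 are high-scoring.

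The share of high-scoring regions far from all others was close to that of the whole list. More than 100 kb from any other region lay 30 of the 315 (9.52%, exact 95% interval 6.52 to 13.3%). The shares were 10.98% of the others and 10.95% of all autosomal regions, both within that interval. Within the 3 narrower width classes the order was the other way, with 21.4% against 16.5% under 2 kb, 13.8% against 7.42% from 2 to 4 kb, and 5.47% against 2.01% from 4 to 10 kb. Over 10 kb the count was 0 in both sets. These shares rest on 3, 20 and 7 high-scoring regions. More than 1 Mb away lay 2 of the 315, and both had positions that are known, as background, for collecting reads from repeats in mm9. The first was the second-ranked region of the list, chromosome 17 at 39979688 to 39986368 (6680 bp, score 141), at the position known for the ribosomal repeat. Its neighbours were 2571359 bp to the left and 3023207 bp to the right. The second was the narrowest high-scoring region, chromosome 2 at 98506125 to 98507729 (1604 bp, score 53), at a position known for satellite-like sequence. Its neighbours were 4258667 and 2748958 bp away. Neither had any other region within 1 Mb of its midpoint.

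Among the 48 other autosomal regions more than 1 Mb from the next, the median score was 15.5 and the highest 46, values that the limit of 50 caps by construction. Whether either position holds repeated sequence, and whether the scores at the ribosomal and satellite sites come from repeat copies was not tested, since neither their sequence nor the input library was used here. Removing both changed little, leaving 313 regions with a median width of 3946 bp and 53.99% with a neighbour within 10 kb. The 3 next most isolated high-scoring regions were on chromosome 14 at 101369374 to 101371232 (1858 bp, score 57, nearest region 509646 bp away), chromosome 1 at 57028812 to 57033503 (4691 bp, score 79, 429187 bp) and chromosome 17 at 8474101 to 8477502 (3401 bp, score 87, 352768 bp).

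The starts of chromosomes, which in the mouse adjoin the satellite-rich centromeres, were looked at separately. Before position 4 Mb lay 109 autosomal regions on 14 chromosomes, with a highest score of 63. Of these, 3 (2.75%) were high-scoring, against 1.96% of all autosomal regions. Those were chromosome 12 at 3863751 to 3871428 (7677 bp, score 51) and chromosome 19 at 3320981 to 3327477 (6496 bp, score 63) and 3766785 to 3768896 (2111 bp, score 52). The region on chromosome 12 had 12 others within 100 kb, and those on chromosome 19 had 0 and 5.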

How the data were processed

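ChIP DNA and input DNA of whole uterus gave single-end libraries read to 50 nt, per the labels' protocols. Reads were aligned with BWA to mm9, per the submitters' processing notes. How regions were called, with which cutoff, and how the input served is not given in the sources used here. A list of regions deposited by the authors gives 1 whole-number score for each, with no unit. Depth is unknown.

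Coordinates are printed as deposited, with starts uncertain by 1 bp, and width is end minus start. Neighbours were sought among autosomal regions. Exact Clopper-Pearson 95% intervals treat regions as independent and cover counting error only. Regions of 1 library are no replicates, so p-values are left out. Named were the regions with extreme score, width, score per kb, isolation or crowding (5 each), the highest per chromosome, the closest pairs and groups, and the repeat sites. The set, its limit and these rules were chosen with earlier results of these data known. The computation of the measures was checked on made-up regions, and all 4 planted values were recovered. The simulated sites were evenly spaced, unlike the real list, and the value for joined regions came from a fixed example. The check therefore covers the computation and not the results. The gene table at hand is on GRCm38.p6, so it was not set against mm9 positions. Python 3.11.15, numpy 2.4.6, pandas 2.3.3 and scipy 1.17.1 were used.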

Additional observations from a re-analysis of the deposited data

How the results depend on the processing

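The number of regions followed the limit by construction, with 705 at a minimum score of 40 and 140 at 60, and was 315 after joining regions less than 1 kb apart. The ratio of median widths stayed above 1 under all 6 alternatives, between 1.49 (only others scoring 20 to 49) and 2.22 (minimum score of 60). The difference in the share with a near neighbour, 10.6 points, lay between 5.83 and 11.5 points with distances of 5 and 25 kb, other limits, joined regions or the repeat sites left out. It was 1.46 points at 100 kb and 0.308 between midpoints. It turned to -19.0, -5.60 and -2.89 points within the 3 narrower width classes, to -3.79 with the others weighted to the 4 classes and to -5.37 with 20 classes. The cause was not tested. The weighting and the removal of the 2 repeat sites were chosen after seeing the data. High-scoring regions with another of them nearby numbered 4 at 10 kb and 170 at 1 Mb, against 26 at 100 kb. The share on chromosome 11 stayed between 8.23 and 9.27%. No paired analysis was possible because each of the 2 libraries stands alone, and no replicate could be left out. What depth limits is unknown.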

Other observations

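On X, 2 of 208 regions scored 50 or more (0.962%, exact 95% interval 0.117 to 3.43%), and they were left out of the set. One lay at 50149604 to 50151524 (1920 bp, score 58), with its nearest neighbour 240457 bp away and 0 others within 100 kb. The other lay at 96655631 to 96658442 (2811 bp, score 50), with a neighbour at 6326 bp and 6 others within 100 kb.

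Some regions under the limit were narrow for their score or isolated; they were chosen after their values were seen. The highest score per kb of the whole autosomal list, 65.4, was found on chromosome 3 (5860354 to 5861042), where a region 688 bp wide scored 45, with its nearest neighbour 282504 bp away. This is above the 50.8 per kb reached by any region scoring 50 or more. The highest score under 50 among regions more than 1 Mb from the next was 46, on chromosome 12 (95392271 to 95394157, 1886 bp), with neighbours 2016689 and 1538685 bp away. Whether either lies in repeated sequence was not tested.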
